A study of Mus musculus with 8 samples.

Results

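The Meis, Pbx and Pknox genes form a family of homeobox transcription factors named TALE for an extended loop between helices of the DNA-binding domain. The members described here were taken by name as Meis1, Meis2, Meis3, Pbx2, Pbx3, Pbx4, Pknox1 and Pknox2, which are 8 of the 28014 genes in the deposited count table. Other genes of the class were not analysed here, except those in a list given further on. All 8 genes were followed through the 10 cell types that the authors had named, in embryos with and without a conditional deletion of Meis1.

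MEIS and PKNOX proteins bind DNA together with PBX proteins, and the PBX partner can also bind HOX proteins, so the family sets where and how firmly HOX proteins act. PBX proteins are carried into the nucleus with the help of MEIS or PKNOX partners. In blood, MEIS1 is known for its place in stem cell maintenance and megakaryocyte formation, and for its cooperation with HOXA9 in leukemia. MEIS2 is known mainly from the limb, the heart and the nervous system. PKNOX1, also called PREP1, and PBX2 are made in most tissues, whereas PBX4 is best known from the testis.

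Single CD31+ cells were sorted from the aorta-gonad-mesonephros (AGM) region of mouse embryos at E10.5 and profiled by CITE-seq, which counts RNA molecules and antibody tags in the same cell. The 5 WT libraries came from C57BL/6 embryos. Whether these were littermates of the other embryos is not given for these libraries in the sources used here. In its deletion experiments the paper uses WT for littermates that lack Cre. The part of strain background in the differences between genotypes was not tested. The 3 libraries called Mff_Cre came from Meis1-flox/VE-Cre embryos, in which VE-cadherin drives Cre in endothelial cells and their descendants can carry the deletion. Each library was a pool of 2 to 5 embryos of the same genotype, so that p-values measure the spread between these pools.

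Levels are given in CPM, the usual scaling of a gene's UMIs by the total UMIs, with both summed over the cells of 1 library and 1 cell type. The reads lie at the 3′ end of a transcript and are not scaled by length, so a level of one gene set beside that of another is a count of molecules captured. Median UMIs per cell were between 26572 and 28553 in WT 1 to WT 4, 12721 in WT 5, and between 9612 and 14895 in Mff_Cre, so genotype and depth cannot be told apart except through WT 5. There were 33 cell barcodes present in more than 1 library. WT 3 held 5 megakaryocytes and was left out of that cell type, where WT then had 4 libraries. The names of the cell types were checked against marker lists. The lists named for megakaryocytes and Myeloid cells were highest in the cells of that name for 6 of 6 genes each, the pre-HE list for 2 of 3, the EHT list for 3 of 5 and the EMP list for 2 of 4. Of 6 arterial genes 0 were highest in aEC, and 5 ranked in its top 2 cell types.

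In the genome build of the files (GRCm38, mm10), Meis1 spans chr11:18880428-19019651, Meis2 chr2:115861264-116067537 and Meis3 chr7:16174012-16186510. Pbx2 spans chr17:34592259-34597400, Pbx3 chr2:34171457-34372045 and Pbx4 chr8:69832476-69872292. Pknox1 spans chr17:31564722-31607693 and Pknox2 chr9:36890979-37147342. RefSeq annotates all 8 as protein coding. Reads were taken near the 3′ end of each gene, and the floxed part of Meis1 is an internal coding exon, so a transcript without that exon can still be counted. A lower Meis1 count in Mff_Cre is therefore not a direct measure of the deletion.

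In WT embryos Meis1 was highest in blood clusters, and Meis2 in pre-HE and the venous clusters vEC_4 and vEC_3. Meis1 was highest in megakaryocytes (118.6 CPM ± 35.5, SD, n = 4) and EHT (80.0 CPM ± 6.9, n = 5), the cluster of cells in the endothelial-to-hematopoietic transition. EMP, the erythro-myeloid progenitors, had 65.6 CPM ± 7.9. Pre-HE, the pre-hemogenic endothelium, had 31.8 CPM ± 14.6, and Myeloid cells 20.4 CPM ± 5.5. Each of these overlapped the next in its range over libraries, except that EMP lay above pre-HE without overlap. The endothelial clusters were lower, from 9.50 CPM in vEC_4 through 7.33 in vEC_3, 3.02 in vEC_2 and 2.66 in vEC_1 to 1.18 CPM ± 0.27 in aEC, the arterial endothelium. In this part of the order Myeloid cells lay above vEC_4, vEC_3 above vEC_2 and vEC_1 above aEC without overlap, while vEC_4 and vEC_3, and vEC_2 and vEC_1, overlapped.

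Meis2 took another order. In pre-HE the WT libraries read 213.8, 270.8, 233.4, 168.4 and 206.0 CPM, for a mean of 218.5 CPM ± 37.5. The lowest pre-HE library lay above the highest library of every other cell type in WT. The venous clusters followed with 99.4 CPM ± 6.5 in vEC_4 and 49.3 CPM ± 9.5 in vEC_3. EHT had 18.8 CPM ± 5.3, vEC_2 17.5 CPM ± 0.65, vEC_1 14.1 CPM ± 1.5, megakaryocytes 9.94 CPM ± 9.19, aEC 8.66 CPM ± 1.55 and Myeloid cells 3.02 CPM ± 1.83. Neighbours in this order overlapped only between EHT and vEC_2, between vEC_1 and megakaryocytes, and between megakaryocytes and aEC. EMP was lowest, with 0, 0, 0.484, 0.532 and 0 CPM in WT 1 to WT 5, or 4 UMIs among 17719616.

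After each cell was thinned to 5000 UMIs, 59.5% ± 7.3 of WT pre-HE cells held a Meis2 UMI, at a median depth of 12884 UMIs before thinning. The share in aEC was 4.58% ± 1.32 and that in EMP 0.194% ± 0.434, at 18343 and 46036 UMIs. Without thinning the shares were 81.4%, 12.2% and 1.11%. For Meis1 the thinned shares were 47.4% ± 6.2 in megakaryocytes, 30.1% ± 4.3 in EHT and 24.2% ± 8.9 in EMP, against 0.475% ± 0.522 in aEC. The part of free RNA in these shares was not tested.

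**Figure D1:**
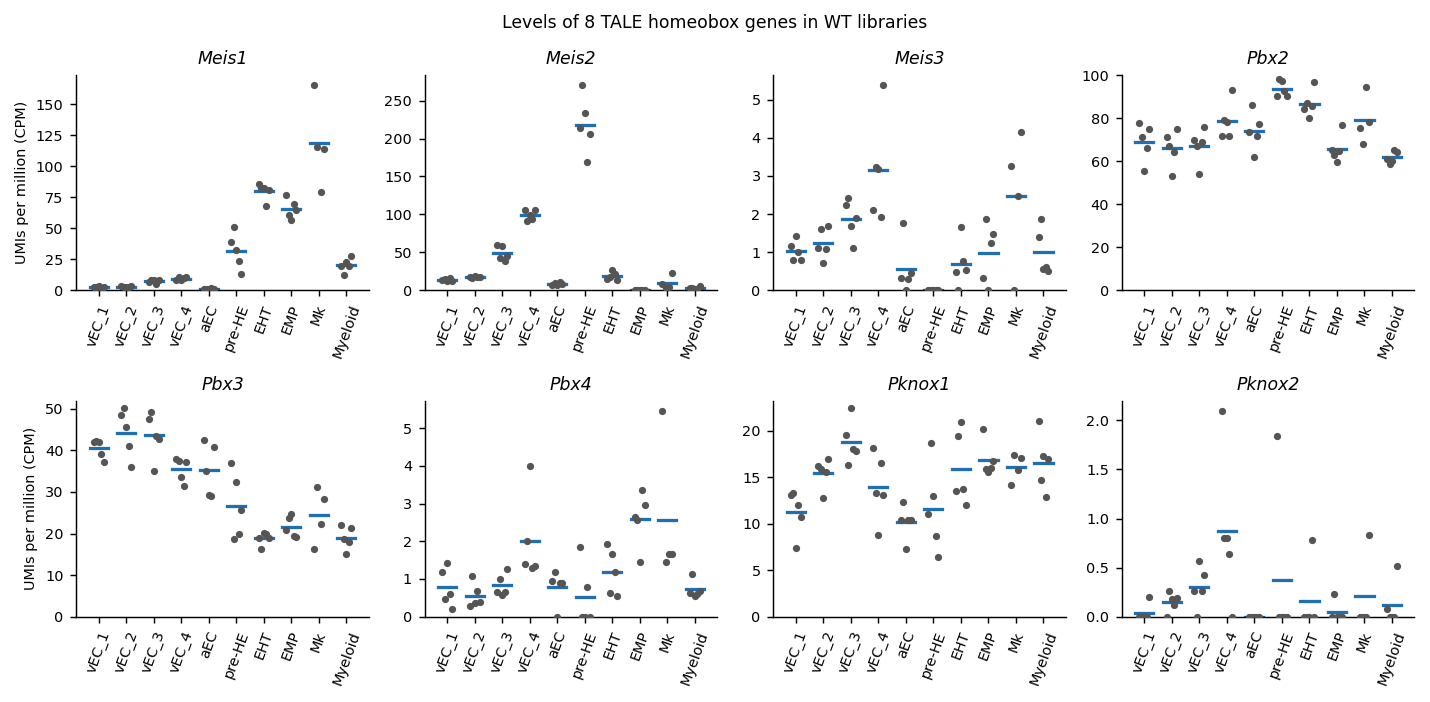
Levels of the 8 genes in the WT libraries, with CPM on the vertical axis of each panel (its own scale) and the 10 cell types along the horizontal axis; each point is 1 library and the bar is the mean. Meis1 stands highest in megakaryocytes, EHT and EMP, Meis2 in pre-HE and vEC_4 and lowest in EMP, while the means of Pbx2 lie between 61.9 and 93.6 CPM in all 10 cell types.

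Meis3, the third of its group, was near the limit of counting. Its WT mean was highest in vEC_4, at 3.16 CPM ± 1.38, and neighbours in its order overlapped throughout. In pre-HE 0 UMIs were found among 2331096 in WT, which allows up to 1.29 CPM, and 0 among 524071 in Mff_Cre, which allows up to 5.72 CPM. These limits and the counting intervals given for other ratios cover counting error only.

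Taken as a share of the UMIs of the 3 Meis genes, Meis1 made up 98.2% ± 1.1 in WT EMP, 90.8% ± 7.1 in megakaryocytes, 83.2% ± 8.3 in Myeloid cells and 80.5% ± 5.2 in EHT. In the 4 venous clusters, aEC and pre-HE its mean share was between 8.51% and 15.1%, and Meis2 held most of the rest. In pre-HE it was 12.3% ± 4.0.

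**Figure D2:**
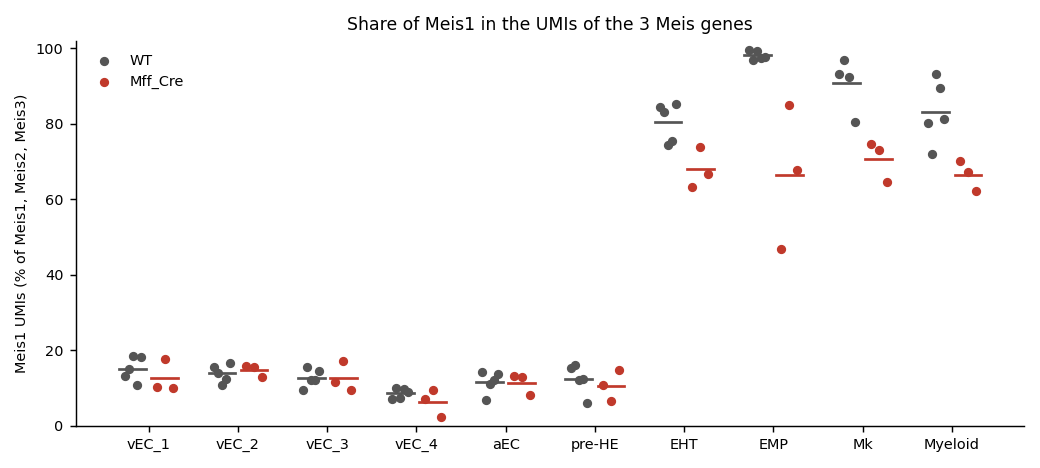
Share of Meis1 in the summed UMIs of Meis1, Meis2 and Meis3, in percent, for each library of WT and Mff_Cre in the 10 cell types; bars are means. The 6 endothelial clusters lie low in both genotypes, and among the 4 blood clusters the Mff_Cre means, 66.5% to 70.7%, lie below the WT means, 80.5% to 98.2%.

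Of the Pbx genes, which encode the common partners, Pbx2 varied less between cell types than Pbx3. Its WT means ran from 61.9 CPM ± 2.8 in Myeloid cells to 93.6 CPM ± 3.8 in pre-HE, and each neighbour in the order overlapped the next. Pbx3 was highest in vEC_2 (44.3 CPM ± 5.7), vEC_3 (43.6 CPM ± 5.5) and vEC_1 (40.5 CPM ± 2.2). It was lowest in Myeloid cells (19.0 CPM ± 2.8) and EHT (18.8 CPM ± 1.5). Pre-HE, at 26.7 CPM ± 7.9, stood next to megakaryocytes at 24.5 CPM ± 6.6, and neighbours in the order overlapped throughout. Pbx4 did not pass a mean of 2.60 CPM, its value in EMP. Among the Pknox genes, which encode the other partners of PBX, Pknox1 lay between 10.1 CPM ± 1.8 in aEC and 18.8 CPM ± 2.3 in vEC_3. Pknox2 stayed at or below 0.868 CPM, and 0 UMIs among 16655098 were found in WT aEC, which allows up to 0.18 CPM.

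Pairs of cell types, called steps here, were then compared within the 5 WT libraries. The test was edgeR's quasi-likelihood test on summed counts, with an adjusted p (Benjamini-Hochberg) under 0.1 as the threshold. The paper proposes that mature blood cells, EMP included, likely came from the yolk sac, with perhaps a few from the transition. A step to or from EMP is therefore a comparison of clusters and is not taken as a change along a path. The clusters had been drawn by the authors on RNA from the same cells. The calls therefore describe how the named clusters differ, and most genes differed at most steps. Across the 9 steps 33 of 50 tests of a member passed the threshold, 23 by DESeq2.

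In aEC against vEC, 6 of 7 tested members were called, where 58.3% of all genes were. Meis1 fell by 1.87 (SE 0.26), Meis2 fell by 1.87 (SE 0.12) and Meis3 fell by 1.29 (SE 0.45) on the log2 scale. Pbx3 and Pknox1 also fell, by 0.24 and 0.51, calls that were lost with cells thinned to 5000 UMIs. Pbx2 rose, with a log2 difference of 0.15, a call that was lost with DESeq2 and without WT 2. From aEC to pre-HE 3 of 5 were called, beside 42.1% of all genes. Meis1 rose by 4.40 (SE 0.41) and Meis2 by 4.37 (SE 0.16), while Pbx3 fell by 0.56 (SE 0.22). Both calls of Pbx3 were lost without WT 2, without WT 4 and with thinned cells, and that in pre-HE also with DESeq2. From pre-HE to EHT 2 of 5 were called, beside 61.2%. Here Meis1 and Meis2 parted, as Meis1 rose by 1.40 (SE 0.20) and Meis2 fell by 3.40 (SE 0.16).

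In EMP against EHT 3 of 5 members were called, beside 57.5% of all genes. Meis2 fell, and its pooled level was 81.7 times as high in EHT as in EMP (exact counting interval 31.4 to 303). Pbx2 fell by 0.27 and Pbx3 rose by 0.30, and both calls were lost with DESeq2 and with thinned cells. The call of Pbx3 was also lost without WT 1, WT 2, WT 3 or WT 5. Meis1 had a log2 difference of −0.14 (SE 0.09, adjusted p = 0.231, edgeR) and was not called. In megakaryocytes against EMP 3 of 5 were called, beside 58.7%, and all were higher. Meis1 rose by 0.86 (SE 0.17) and Pbx2 by 0.30 (SE 0.12), and the pooled ratio of Meis2 was 65.3 (21.5 to 324). Of the 74 megakaryocyte Meis2 UMIs behind this ratio, 56 were in WT 5. The call of Pbx2 was lost with DESeq2, with thinned cells and without WT 1, WT 2 or WT 4. In Myeloid cells against EMP 3 of 6 were called, beside 59.9%. Meis1 fell by 1.76 (SE 0.14), Pbx4 fell by 1.81 (SE 0.38), and Meis2 was higher with a pooled ratio of 14.1 (5.39 to 52.5). The 59 WT Myeloid cells with a Meis2 UMI had a sum of 6 endothelial markers of 373 CPM, against 77.8 CPM in the 993 without, and the part of this in the Myeloid level was not tested.

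Within the venous endothelium the 3 Meis genes were higher in vEC_4 than in vEC_1. In vEC_2, vEC_3 and vEC_4 against vEC_1, 3 of 5, 5 of 6 and 5 of 6 members were called, beside 40.9%, 56.0% and 54.6% of all genes. Meis2 rose by 0.23, 1.59 and 2.69 on the log2 scale. Meis1 had a difference of 0.22 in vEC_2 that was not called (adjusted p = 0.463, edgeR), and rose by 1.37 and 1.88 in vEC_3 and vEC_4. Meis3 was tested in vEC_3 and vEC_4, where it rose by 0.67 and 1.39. Pknox1 rose in all 3, by 0.38, 0.56 and 0.27, while Pbx3 fell in vEC_4 by 0.27. Pbx2 fell by 0.10 in vEC_2 and by 0.12 in vEC_3, and the second of these turned to 0.0080 in thinned cells. With 1 library left out, Pbx2 in vEC_2 lost its call without WT 1, WT 2, WT 3 or WT 4, Pbx2 in vEC_3 without WT 1 or WT 2, and Meis3 in vEC_3 without WT 1, WT 2 or WT 5. Meis2 in vEC_2 lost it without WT 3, and Pknox1 in vEC_4 without WT 1 or WT 4. With DESeq2 and with thinned cells, Meis2 and Pbx2 in vEC_2, Pbx2 in vEC_3, and Pbx3 and Pknox1 in vEC_4 lost their calls. Pknox1 in vEC_2 lost it with thinned cells, and Meis3 in vEC_3 with DESeq2. Of 4 venous markers 3 were also higher in vEC_4, and 3 of 3 tested mesenchyme genes were higher there, with a sum over 10 such genes of 37.2 CPM against 5.23 CPM in vEC_1. The part of other cells in these levels was not tested.

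Mesenchyme is known to express Meis and Pbx genes, and a CD31 sort could hold some of it. The 10 mesenchyme genes summed to 55.4 CPM in WT pre-HE (range 32.2 to 88.5), with Pdgfrb and Wt1 at 0, and to 3.31 CPM in aEC (0.914 to 5.99). All 3 that could be tested were higher in pre-HE, where 42.1% of all genes were called. The endothelial list summed to 3591 CPM in pre-HE. The part of such cells in the Meis2 level of pre-HE was not tested.

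The HOX proteins with which the family acts were followed by a list of 24 Hox genes. From aEC to pre-HE 7 of 12 tested Hox genes rose and 0 fell, with a median log2 difference of 1.00 against −0.01 for all genes. Hoxa10 rose by 3.66, Hoxa9 by 2.38, Hoxb3 by 1.79 and Hoxb9 by 1.52. From pre-HE to EHT 2 rose and 9 fell of 12, with a rise of Hoxa7 by 2.02 and differences of −2.47 for Hoxd8 and −2.16 for Hoxb7. In EMP against EHT all 12 fell, with a median of −4.80 against −0.0036 for all genes. Of all genes 42.1%, 61.2% and 57.5% were called in these steps, in that order and in either direction. Hoxa9, the partner of MEIS1 in leukemia, stood at 33.4 CPM ± 14.9 in WT pre-HE, 113.6 CPM ± 18.8 in EHT and 3.49 CPM ± 3.85 in EMP.

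In aEC against vEC 12 of 16 Hox genes fell, led by Hoxa5 (−2.28). In megakaryocytes against EMP 6 of 7 rose, and in Myeloid cells against EMP 2 of 5 rose. Hoxa5 led the venous steps, with rises of 0.76, 1.88 and 2.94 in vEC_2, vEC_3 and vEC_4 against vEC_1. In those 3 steps 11 of 16, 11 of 16 and 6 of 15 Hox genes rose, and 0, 1 and 4 fell. Of all genes 40.9%, 56.0% and 54.6% were called there. The share was 58.3% in aEC against vEC, 58.7% in megakaryocytes against EMP and 59.9% in Myeloid cells against EMP.

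A second list held 10 genes tied to MEIS1 in blood cells by earlier work. From pre-HE to EHT 7 of 10 rose and 1 fell, with a median of 1.74 against 0.05 for all genes. Myb, a regulator of blood progenitors, stood at 1.11 CPM ± 2.47 and 157.0 CPM ± 27.2. Hlf, a factor of stem cells, stood at 2.20 CPM ± 2.69 and 100.7 CPM ± 20.6. Kit, the receptor for stem cell factor, rose by 3.61 on the log2 scale. Flt3, a growth factor receptor, was at 0 in the 5 pre-HE sums and at 12.5 CPM ± 4.8 in EHT. In EMP against EHT 2 rose and 7 fell of 10. Hlf fell by 6.24 and Erg, an endothelial and stem cell factor, fell by 1.57, while Trib2 rose by 1.93. In pre-HE against aEC 1 of 7 rose (Pf4, 1.21) and 2 fell (Kit, −1.40, and Trib2, −1.10). In aEC against vEC 3 rose and 2 fell of 8, in megakaryocytes against EMP 4 rose and 4 fell of 9, and in Myeloid cells against EMP 2 rose and 5 fell of 10. The venous steps gave 3, 4 and 4 higher and 4, 4 and 2 lower of 8 genes each, beside 40.9%, 56.0% and 54.6% of all genes called. Of all genes 61.2% were called from pre-HE to EHT, 57.5% in EMP against EHT and 42.1% in pre-HE against aEC. The share was 58.3% in aEC against vEC, 58.7% in megakaryocytes against EMP and 59.9% in Myeloid cells against EMP.

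The KMT2A complex, which acts upstream of Meis1 and the Hoxa genes, had small differences. Between 1 and 5 of its 7 genes were called at each of the 9 steps, beside 40.9% to 61.2% of all genes. The medians lay between −0.38 and 0.37. Kmt2a itself rose by 0.49 from aEC to pre-HE and fell by 0.40 from pre-HE to EHT, while Psip1, an adaptor of the complex, fell by 0.35 and then rose by 0.93. Of 9 other TALE genes of the Tgif, Irx and Mkx groups, between 2 and 4 could be tested at each step and between 1 and 4 were called. Tgif1, a repressor of retinoid and TGF-beta signals, rose by 0.52 from aEC to pre-HE and fell by 1.83 from pre-HE to EHT. Irx3 and Irx5 rose in vEC_4 against vEC_1, by 1.26 and 2.15.

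The genes most alike to each member were found over the 49 sums of WT libraries and cell types, among 9761 genes, as a description. The points share libraries and depth. Meis1 was most like Ikzf2 (r = 0.928), Frrs1 (0.924) and Ptpre (0.913), and Meis2 most like Stmn2 (0.945), Col26a1 (0.943) and Mmp2 (0.940), which have their highest levels in pre-HE. Pbx3 was most like Snai1 (0.875), Ripply3 (0.862) and Cdkl1 (0.857). For Pbx2 and Pknox1 the likeness was weaker, with Dguok (0.774), Ubl7 (0.769) and Ogt (0.768) for Pbx2, and Diaph3 (0.770), Zc3h18 (0.766) and Mki67 (0.755) for Pknox1. Between members, Meis1 and Pbx3 had r = −0.743, and Meis1 and Meis2 r = −0.187.

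The family was then compared between the genotypes within each cell type, to see where Meis1 was lower and whether another member was higher. Over the 10 cell types 2 of 47 tests of a member passed the threshold, 3 by DESeq2, and 12 had an unadjusted p under 0.05. In the blood clusters those were 3 of 5 in EMP, 3 of 5 in EHT, 1 of 5 in megakaryocytes and 2 of 5 in Myeloid cells, beside 17.3%, 9.49%, 8.83% and 15.4% of all genes. Both calls were in EMP, where Meis1 was lower and Meis2 higher in Mff_Cre.

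The Meis1 levels in EMP were 77.0, 60.3, 56.7, 69.4 and 64.9 CPM in WT 1 to WT 5, and 20.9, 36.4 and 25.4 CPM in Mff_Cre 1 to Mff_Cre 3. The 2 genotypes did not overlap, as for 12.4% of all genes in EMP. The log2 difference was −1.20 (SE 0.17, adjusted p = 0.00663, edgeR quasi-likelihood test with Benjamini-Hochberg adjustment), and 2 of 5 tested members were called, 1 lower and 1 higher, beside 4.74% of all genes (2.06% lower and 2.68% higher). An exact permutation test of libraries, two-sided, gave p = 0.0179, the smallest that 5 against 3 libraries allow. WT 5, of similar depth to Mff_Cre, lay with the other WT libraries, and against it alone the log2 difference was −1.20 (adjusted p = 0.0836, edgeR). In that fit WT was 1 library, assumed to vary like the 3 Mff_Cre libraries, which alone gave the spread. The thinned share of EMP cells with a Meis1 UMI was 24.2% ± 8.9 in WT and 10.3% ± 4.6 in Mff_Cre, and 84.2% and 35.9% without thinning, at median depths of 46036 and 17100 UMIs.

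Meis2 went the other way in the same cells. Its levels in EMP were 0, 0, 0.484, 0.532 and 0 CPM in WT and 22.9, 5.53 and 10.3 CPM in Mff_Cre, again without overlap. In counts, 4 UMIs of 17719616 in WT faced 83 of 6545753 in Mff_Cre, a ratio of 56.2 (exact counting interval 21.1 to 211). Meis2 was called (adjusted p = 0.00457, edgeR quasi-likelihood test with Benjamini-Hochberg adjustment; exact permutation p = 0.0179). In the EMP comparison 12.4% of all genes did not overlap between genotypes, 8.09% lower and 4.32% higher in Mff_Cre. The thinned share of cells with a Meis2 UMI was 0.194% in WT and 6.50% ± 5.06 in Mff_Cre, with a range of 2.04% to 12.0% over the 3 libraries, and 1.11% and 8.48% without thinning. Meis2 was above Meis1 in Mff_Cre 1 and below it in the other libraries, and the share of Meis1 among Meis UMIs was 66.5% ± 19.1 in Mff_Cre EMP. With cells thinned to 5000 UMIs, Meis2 was too low for the edgeR fit and the adjusted p of Meis1 was 0.114, at a log2 difference of −1.18. The thinned levels were 0.388 and 23.2 CPM for Meis2 (exact permutation p = 0.0179) and 59.5 and 23.0 CPM for Meis1 (0.0893). With median UMIs per cell as a covariate, Meis1 had a log2 difference of −1.38 with an adjusted p of 0.138, and Meis2 an adjusted p of 0.0524 (edgeR).

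**Figure D3:**
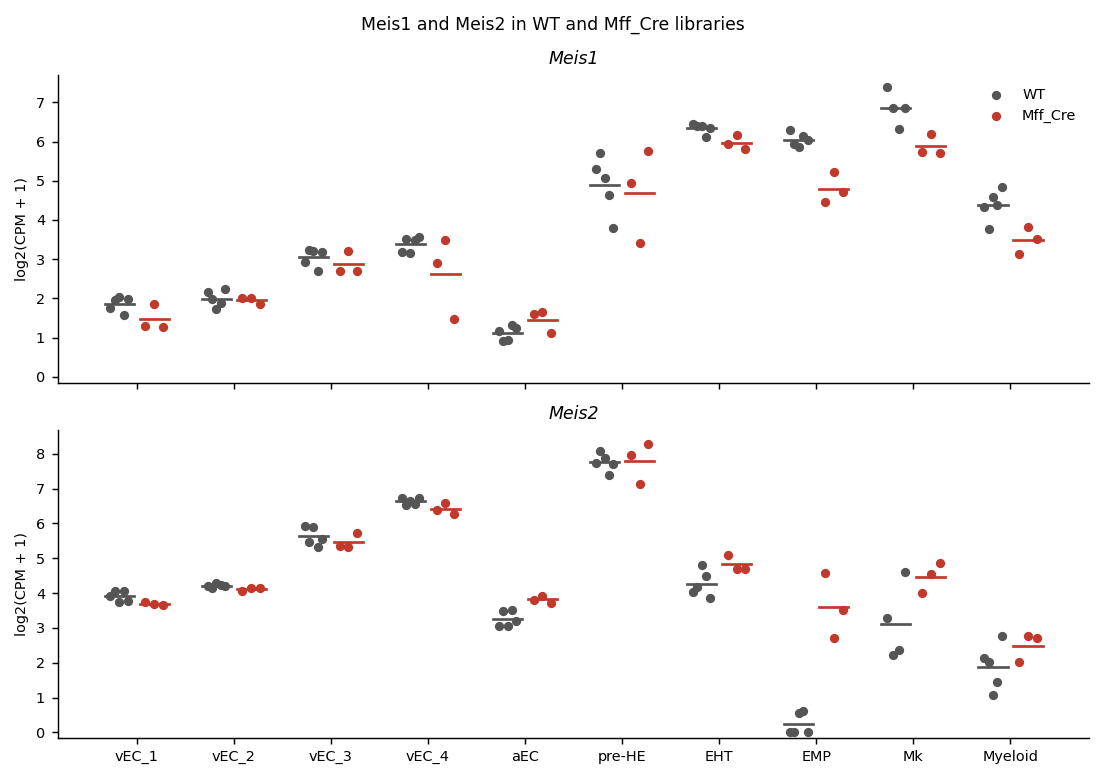
Meis1 and Meis2 in each library of WT and Mff_Cre, as log2(CPM + 1) on the vertical axis, for the 10 cell types; points are libraries and bars are means. In EMP the Mff_Cre libraries lie below WT for Meis1 (20.9 to 36.4 against 56.7 to 77.0 CPM) and above WT for Meis2 (5.53 to 22.9 against 0 to 0.532 CPM).

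The EMP cells with Meis2 were few, and most of them held Cpa3. In Mff_Cre 28 of 357 EMP cells held a Meis2 UMI, with up to 14 UMIs in a cell, and 0 of the 28 were called as doublets. Of them 25 also held a UMI of Cpa3, a protease of mast cell granules, and 11 held a Meis1 UMI. Cpa3 stood at 1848 CPM in these cells against 143 CPM in the other 329. Hdc, which makes histamine, stood at 433 against 53.4 CPM, and Gzmb, a granzyme, at 333 against 10.3 CPM. Gata2 stood at 283 against 99.1 CPM. Their median depth was 11456 UMIs against 17850. The 6 endothelial genes summed to 247 against 96.0 CPM, and the 6 erythroid genes to 155 against 1007 CPM. These genes were chosen after their values had been seen, and no test was made.

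EMP was also split by the presence of a Cpa3 UMI, after the values had been seen. Whether a cell shows a Cpa3 UMI depends on its depth. Cells with Cpa3 had median depths of 47527 to 53616 UMIs in WT 1 to WT 4, 21233 in WT 5 and 13400 to 18646 in Mff_Cre. Whether the cells with Cpa3 were alike in the 2 genotypes was not tested. Of WT cells 166 held Cpa3, and these had 1 Meis2 UMI. Of Mff_Cre cells 171 held it, and these had 79 Meis2 UMIs in 25 cells, at a mean of 28.8 CPM over libraries (range 13.0 to 50.0). Without Cpa3, 224 WT cells had 3 Meis2 UMIs and 186 Mff_Cre cells had 4. Meis1 was lower in Mff_Cre on both sides of the split, at 34.2 CPM ± 5.1 against 74.8 CPM ± 11.1 with Cpa3 and 22.7 CPM ± 10.2 against 59.0 CPM ± 10.2 without it. With the cells with Cpa3 left out, Meis1 was still called (log2 difference −1.31, adjusted p = 0.0611, edgeR) and Meis2 was no longer tested. In Myeloid cells Meis2 had 29 UMIs in 70 Mff_Cre cells with Cpa3 and 1 UMI in 23 WT cells with Cpa3. Most Myeloid Meis2 UMIs lay in cells without Cpa3, with 123 in 1275 Mff_Cre cells and 141 in 1029 WT cells. Their mean levels over libraries were 4.29 and 3.14 CPM.

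**Figure D4:**
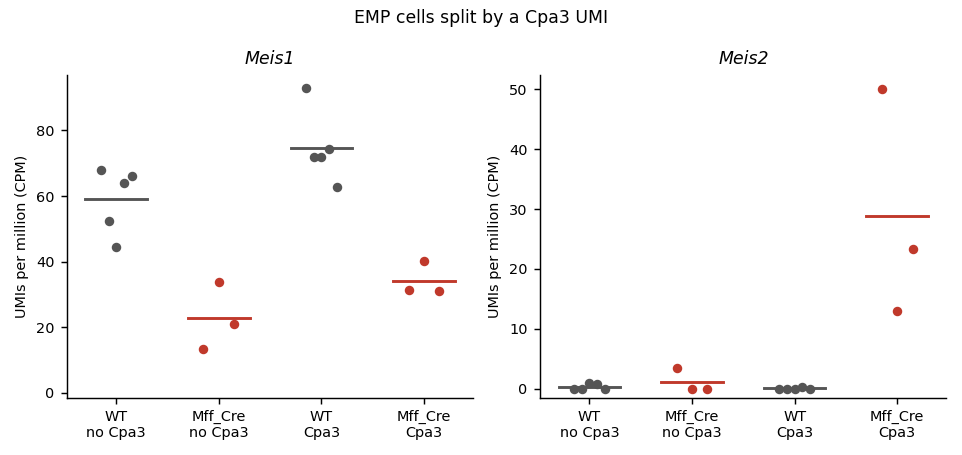
Meis1 and Meis2 in EMP cells without and with a Cpa3 UMI, in CPM per library of WT (5) and Mff_Cre (3); points are libraries and bars are means. Meis2 is at 13.0 to 50.0 CPM in Mff_Cre cells with Cpa3 and at or below 3.35 CPM in the other 3 groups. Meis1 is lower in Mff_Cre on both sides of the split, which depends on depth.

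Other measures moved with genotype in EMP. The erythroid genes summed to 82.8 CPM in WT (range 5.81 to 192) and to 980 CPM in Mff_Cre (286 to 1857), with 6 of 6 detected in both. The 6 Myeloid genes summed to 824 CPM (702 to 890) and 1450 CPM (1125 to 1862). The endothelial genes summed to 79.4 CPM (38.2 to 139) and 104 CPM (72.1 to 126), against 2235 CPM in WT aEC. Of EMP cells 50 of 390 in WT and 126 of 357 in Mff_Cre had no UMI of an endothelial marker. In those cells alone WT 5 was the only WT library with enough cells for a sum, so that 1 library stood against 3 and a lost call says nothing about the difference. Meis1 had a log2 difference of −1.01 there (adjusted p = 0.902, edgeR). Meis2 had an adjusted p of 0.912, and since WT 5 EMP held 0 Meis2 UMIs its fitted difference is not given. The part of the other cell types in the 2 calls was not tested further.

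In the other blood clusters Meis1 means were lower and Meis2 means higher in Mff_Cre, but 0 members were called by edgeR and 1 by DESeq2. EHT Meis1 was 85.8, 82.7, 82.8, 68.0 and 80.9 CPM in WT and 60.0, 70.9 and 55.5 CPM in Mff_Cre, where WT 4 lay below Mff_Cre 2. The log2 difference was −0.34 (SE 0.14, adjusted p = 0.460, edgeR; exact permutation p = 0.0357), where 0.127% of all genes were called. Meis2 in EHT was 15.4, 16.9, 26.7, 21.5 and 13.6 CPM in WT and 32.90, 25.01 and 24.97 CPM in Mff_Cre (log2 difference 0.64, SE 0.25, adjusted p = 0.422). After thinning Meis1 was 80.6 CPM in WT and 73.9 CPM in Mff_Cre EHT (exact permutation p = 0.732). In EHT 3 of 5 members had an unadjusted p under 0.05, beside 9.49% of all genes, and 0 were called by DESeq2.

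In megakaryocytes Meis1 was 165.7, 115.1, 79.5 and 114.0 CPM in WT and 51.9, 71.6 and 51.7 CPM in Mff_Cre. The groups did not overlap, as for 9.23% of all genes there. The log2 difference of −1.0 (SE 0.27) had an adjusted p of 0.297 (edgeR), where 0.206% of all genes were called. The exact permutation p was 0.0571, and 4 against 3 libraries allow 0.0286 at the least. After thinning the means were 120.7 and 50.2 CPM (exact permutation p = 0.0286). With no filter on low counts Meis1 was called here (adjusted p = 0.00749, edgeR), as it was with libraries 1 to 3 of each genotype (0.0691). Meis2 was 8.72, 3.62, 4.14 and 23.3 CPM in WT and 15.0, 22.5 and 28.3 CPM in Mff_Cre, and the groups overlapped. The erythroid genes summed to 2621 CPM in WT and 25473 CPM in Mff_Cre megakaryocytes, and the 6 megakaryocyte genes to 27977 CPM (20979 to 40147) and 16237 CPM (12437 to 22425). Their part in the Meis1 level was not tested.

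In Myeloid cells Meis1 was 19.2, 12.7, 22.9, 19.7 and 27.6 CPM in WT and 7.78, 13.2 and 10.4 CPM in Mff_Cre. The log2 difference was −0.86 (SE 0.25, adjusted p = 0.135 by edgeR and 0.0400 by DESeq2), where 3.26% of all genes were called by edgeR. It was called by edgeR without WT 2 (adjusted p = 0.0614) and without WT 5 (0.0820), and with no filter on low counts (0.0921). Against WT 5 alone, a fit with 1 WT library, the log2 difference was −1.31. After thinning the means were 17.03 and 8.52 CPM (exact permutation p = 0.0357). Meis2 had a mean of 3.02 CPM ± 1.83 in WT and 4.78 CPM in Mff_Cre, and the groups overlapped. Of the 90 Mff_Cre Myeloid cells with a Meis2 UMI 17 were called as doublets.

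Whether these effects differed between cell types was tested on differences within each library. EMP minus EHT in log2(CPM + 0.5) was −0.29 ± 0.23 in WT and −1.19 ± 0.28 in Mff_Cre for Meis1, which differ by −0.90. For Meis2 it was −4.83 ± 0.27 and −1.28 ± 0.78, a difference of 3.55, and for Pbx3 0.19 ± 0.23 and −0.69 ± 0.44, a difference of −0.88. Each had an exact permutation p of 0.0179, two-sided, the smallest possible. For Myeloid minus EMP, Meis2 had 2.25 ± 1.28 and −1.17 ± 1.41, a difference of −3.42 (exact permutation p = 0.0357). These were 4 of 24 such comparisons over 8 genes and 3 pairs of cell types. After Benjamini-Hochberg adjustment over the 24 the first 3 had 0.143 and the fourth 0.214, so that 0 passed 0.1. The size for Meis2 rests on the CPM added before the log, and was 1.20 for EMP minus EHT with 5 CPM added.

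In the endothelium 0 members were called between genotypes, by edgeR and by DESeq2. An unadjusted p under 0.05 was found for 1 of 5 tested members in vEC_2, 1 of 6 in vEC_3 and 1 of 4 in aEC. The shares of all genes were 14.3%, 13.8% and 10.5%. In vEC_1 and vEC_4 0 of 5 tested members had such a p, and in pre-HE 0 of 2, beside 14.0%, 9.24% and 7.14%. Meis1 had log2 differences of −0.47, −0.0057, −0.17 and −0.68 in vEC_1 to vEC_4, and did not pass the filter on low counts in aEC. Of all genes 0.0% were called in vEC_1, vEC_3, vEC_4 and aEC, 0.0187% in vEC_2 and 0.489% in pre-HE. Meis1 in pre-HE was 38.7, 51.4, 32.4, 23.7 and 12.9 CPM in WT and 29.7, 9.57 and 53.0 CPM in Mff_Cre, too few UMIs (69 and 14) to pass the filter. The groups overlapped (exact permutation p = 0.911), and the pooled levels were 29.6 and 26.7 CPM. Meis2 in pre-HE was 247.5, 138.8 and 309.4 CPM in Mff_Cre, on both sides of the WT range (log2 difference 0.12, SE 0.24, adjusted p = 0.974, edgeR).

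Meis2 in aEC was 7.25, 10.3, 7.32, 10.4 and 8.09 CPM in WT and 12.9, 14.2 and 12.3 CPM in Mff_Cre. The groups did not overlap (exact permutation p = 0.0179), as for 6.18% of all genes in aEC, and the edgeR fit gave a log2 difference of 0.58 (SE 0.22, adjusted p = 0.405). After thinning the means were 10.7 and 13.0 CPM (exact permutation p = 0.304). In the venous clusters Meis2 leaned the other way, with log2 differences between −0.23 and −0.06, of which 0 of 4 were called. In vEC_1 and vEC_2 the libraries did not overlap (14.1 CPM ± 1.5 against 11.9 CPM ± 0.36, and 17.5 CPM ± 0.65 against 16.2 CPM ± 0.59, exact permutation p = 0.0357 in each), as for 7.07% and 7.17% of all genes.

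**Figure D5:**
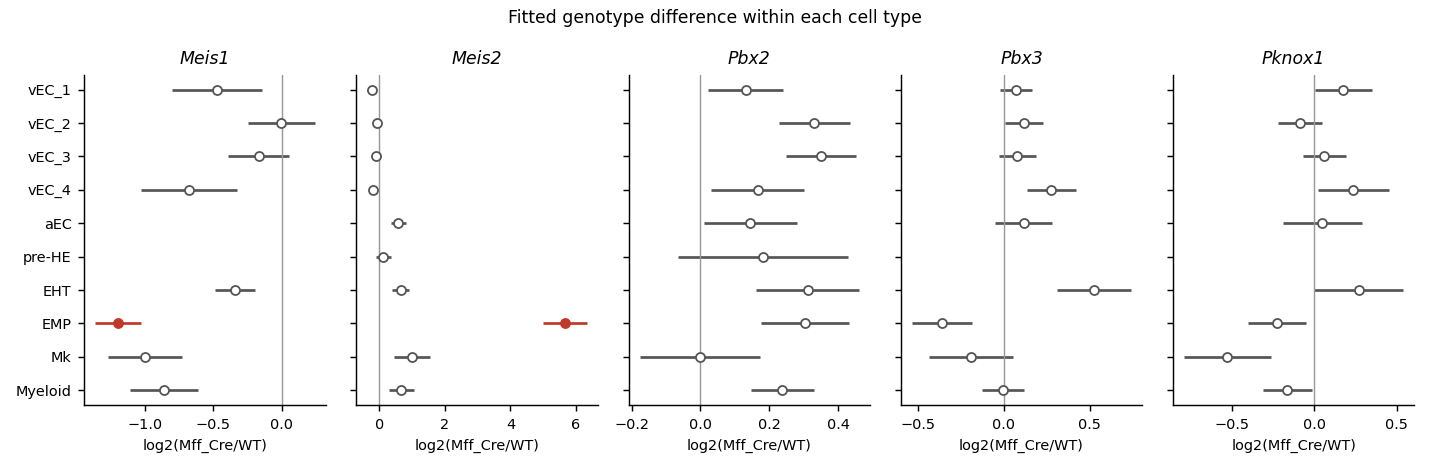
Fitted log2 difference, Mff_Cre over WT, of 5 members (points, with bars of 1 standard error; each panel has its own scale) in each cell type where they passed the filter on low counts; filled points passed an adjusted p under 0.1. The 2 filled points are Meis1 (−1.20) and Meis2 in EMP, and the open points of Pbx2, Pbx3 and Pknox1 lie between −0.53 and 0.53.

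Among the Pbx genes Pbx2 had higher means in Mff_Cre in 9 of 10 cell types, with 0 calls. In vEC_3 it was 69.7, 66.9, 54.1, 68.7 and 75.9 CPM in WT and 85.7, 87.3 and 79.0 CPM in Mff_Cre, without overlap, as for 6.89% of all genes there. The log2 difference was 0.35 (SE 0.10, adjusted p = 0.209, edgeR; exact permutation p = 0.0179). In vEC_2 the means were 66.1 CPM ± 8.4 and 80.7 CPM ± 3.7 (log2 difference 0.33, adjusted p = 0.239; exact permutation p = 0.0357). WT 5 was the highest WT library in both clusters, and against WT 5 alone the differences were 0.14 and 0.10. Without WT 5 both were called, with adjusted p of 0.0309 and 0.0288 (edgeR), so depth and genotype cannot be told apart for Pbx2. The thinned means were 68.3 and 83.8 CPM in vEC_3 (exact permutation p = 0.0536) and 64.7 and 84.3 CPM in vEC_2 (p = 0.0179).

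Pbx3 in EHT was 18.8, 16.3, 20.1, 19.9 and 19.0 CPM in WT and 24.2, 22.9 and 31.9 CPM in Mff_Cre. The libraries of the 2 genotypes did not overlap (exact permutation p = 0.0179), as for 7.09% of all genes, and the log2 difference of 0.53 (SE 0.22) had an adjusted p of 0.446 (edgeR). Pbx2 in Myeloid cells was also without overlap, at 61.9 CPM ± 2.8 and 69.98 CPM ± 3.75, as for 11.2% of all genes there, but the thinned means were 64.8 and 65.1 CPM (exact permutation p = 0.964). Pknox1 in WT megakaryocytes had a mean of 16.1 CPM ± 1.5, and that of Mff_Cre was 10.98 CPM ± 1.6 (exact permutation p = 0.0286, log2 difference −0.53, adjusted p = 0.605, edgeR), without overlap, as for 9.23% of all genes. Pknox2 in vEC_2 was without overlap at 0.149 and 0.498 CPM, which rest on 6 and 7 UMIs, where 7.17% of all genes did not overlap. In all, 78 pairs of a member and a cell type were compared by exact permutation, and 12 had a p under 0.05. After Benjamini-Hochberg adjustment over the 78 pairs 0 passed 0.1, and the lowest value was 0.199.

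The lists were read in the same comparisons. Of the 10 genes tied to MEIS1 1 of 8 was called in EMP (3 with an unadjusted p under 0.05, 1 by DESeq2), where Trib2, a pseudokinase that is a MEIS1 target in leukemia, was lower in Mff_Cre (4.95 CPM ± 2.04 against 0.909 CPM ± 0.420, log2 difference −2.29, adjusted p = 0.0728, edgeR). In Myeloid cells 1 of 10 was called, Flt3, at 3.38 CPM ± 1.41 against 0.242 CPM ± 0.349 (log2 difference −3.46, adjusted p = 0.0321, edgeR), and DESeq2 called 2. In EHT 0 of 9 were called, 6 had an unadjusted p under 0.05, and 1 was called by DESeq2. In megakaryocytes 0 of 6 were called, with 2 under 0.05 and 1 by DESeq2. Of all genes edgeR called 4.74% in EMP, 3.26% in Myeloid cells, 0.127% in EHT and 0.206% in megakaryocytes. In the same order 17.3%, 15.4%, 9.49% and 8.83% of all genes had an unadjusted p under 0.05. In the endothelial clusters 0 were called by either tool, with up to 1 under 0.05, beside 7.14% to 14.3% of all genes. Of the Hox list edgeR called 0 genes in any of the 10 cell types, with up to 4 of 8 under an unadjusted p of 0.05 in EHT, and DESeq2 called 1 in vEC_3. Of the KMT2A list 0 were called by either tool, with up to 2 of 7 under 0.05. Of the other TALE genes 0 were called by either tool, with up to 1 under 0.05.

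Last, the EHT cells of the 7 libraries with tag counts were split at the median tag count of their library, since the antibody tags had taken no part in drawing the clusters. Cells above the median also had more UMIs, in 6 of 7 libraries for CD45.2 and in 7 of 7 for CD117 and CD41. For CD45.2, CD117 and CD41, 0 of 5 members were called by edgeR and 0 by DESeq2, beside 0.326%, 0.852% and 3.63% of all genes. Meis2 stood at 26.5 CPM ± 12.0 in cells above the median of CD45.2 and 17.6 CPM ± 8.9 in the rest, higher in 5 of 7 libraries (log2 difference 0.66, SE 0.28, adjusted p = 0.564, edgeR), and was the 1 member with an unadjusted p under 0.05, beside 8.0% of all genes (8.11% for CD117 and 13.0% for CD41, with 0 members each). Meis1 stood at 81.3 CPM ± 12.7 above the median of CD117 and 65.5 CPM ± 19.0 in the rest, higher in 4 of 7 libraries (log2 difference 0.26, adjusted p = 0.653). For CD41 the Meis1 levels were 73.8 and 74.3 CPM.

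The CD117 split moved other genes of the MEIS1 list. Of 9 tested, 4 rose above the median of CD117, namely Pf4 by 0.91 (SE 0.20), Msi2 by 0.48 (SE 0.11), Kit by 0.43 (SE 0.12) and Myb by 0.34 (SE 0.09). Kit encodes CD117 itself, Pf4 a platelet chemokine and Msi2 an RNA-binding protein of stem cells. DESeq2 called 0 of them, and 5 had an unadjusted p under 0.05. Of all genes 0.852% were called by edgeR for CD117 and 8.11% had such a p. Of the list 0 genes were called for CD45.2 and CD41, by edgeR and by DESeq2, with 0 under an unadjusted p of 0.05. Of the Hox, KMT2A and other TALE lists 0 were called for any of the 3 tags by either tool, with up to 3 Hox genes under 0.05 for CD41 and 0 of the other lists.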

How the data were processed

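RNA and antibody tags were measured in single CD31+ cells of 8 libraries. For 15168 cells, the authors deposited the UMI counts of 28014 genes and 6 tags as whole numbers without scaling, and a table naming the library, genotype and cell type of each cell. According to the submitters' processing notes, reads were counted with Cell Ranger 3.0.2 on mm10. The study's methods state that cells were filtered, integrated and clustered on RNA. In the deposited counts 0 values were not whole and the fewest genes in a cell was 2001. The tag total of WT 4 was 0, so tags were used in 7 libraries. The members and gene lists were chosen with earlier results of these data known.

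Counts were summed over the cells of a library that share a cell type, and sums under 10 cells were left out. Cell types were compared in WT only, blocked by library, and genotypes within a cell type without a block, by edgeR 4.0.16 in R 4.3.3 (TMM, filterByExpr, quasi-likelihood F test, two-sided, Benjamini-Hochberg over all genes tested, adjusted p under 0.1). The study's own tests were made on cells and were not used. Single members were compared by exact permutation of libraries on CPM. vEC is the sum of vEC_1 to vEC_4.

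All members are named. The 3 genes most alike are named for each member that reaches 5 CPM, by Pearson's r of log2(CPM + 1) among genes of at least 10 CPM in a cell type. Up to 4 genes of a list are named per comparison by the size of the difference among those called, and others where their level is needed. Shares were taken after thinning cells to 5000 UMIs, which left out 101 shallower cells. Scrublet in scanpy 1.11.5 called 83 cells (0.547%) as doublets, which were kept except in an alternative. In simulated counts for the EMP genotype test (9172 genes), 74% of genes changed by 1 and 97% of those changed by 2 on the log2 scale were found. Alternatives changed the normalization, filter, tool (DESeq2 1.42.0), threshold, thinning, doublets, covariates and libraries. Libraries 1 to 3 without a block, and EMP or blood cells without a Cpa3 or an endothelial marker UMI, were alternatives chosen after seeing the data. Python 3.11.15 was used with numpy 2.4.6, pandas 2.3.3 and scipy 1.17.1. Total UMIs per library ranged from 20484881 to 79429129.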

Additional observations from a re-analysis of the deposited data

Results flagged for a closer look

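Of 45 groups of a member, cell type and genotype with enough libraries to look for a value standing apart, 2 held one, where chance gives about 1 in 20. In WT EHT the Meis1 level of WT 4, 68.0 CPM, lay far below the other 4 libraries at 80.9 to 85.8 CPM. In WT EMP the Pknox1 level of WT 1, 20.1 CPM, lay above the others at 15.5 to 16.7 CPM.

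For 3 members the genotype effects in a pair of cell types had an exact permutation p under 0.05 for their difference, but 0 of the 24 comparisons passed 0.1 after Benjamini-Hochberg adjustment. For EMP minus EHT the differences in log2 effect were −0.90 for Meis1, 3.55 for Meis2 and −0.88 for Pbx3. For Myeloid minus EMP the difference was −3.42 for Meis2. The Meis2 values hold levels at or near 0 in WT EMP and change in size with the CPM added before the log.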

How the results depend on the processing

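Against 33 calls of a member over the WT steps, there were 13 with Bonferroni adjustment, 14 with cells thinned to 5000 UMIs, and 25 to 30 with 1 library left out. Between genotypes there were 2 calls of a member. The count was 4 with no filter on low counts, 0 with thinned cells and 1 with median UMIs per cell as a covariate. It was 6 with libraries 1 to 3 of each genotype, and 2 to 9 with 1 library left out. These counts include the summed vEC, whose cells are those of vEC_1 to vEC_4. The highest, 9, came without WT 5, and added Pbx2 in vEC_2, vEC_3, summed vEC and EMP, Meis2 in megakaryocytes and both genes in Myeloid cells. With the replicate block the count was 5, with Pbx2 in vEC_2, vEC_3 (adjusted p = 0.0215 and 0.00314, edgeR) and summed vEC added. The deviations of same-numbered libraries had correlations between −0.15 and 0.21, not all above 0.1. The labels do not pair these libraries, and whether they shared a litter or a run is not given.

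In blood cell types 0 of the 2 were called without cells holding an endothelial marker UMI, where WT 5 was the only WT library left in EMP, and Meis1 in EMP had a log2 difference of −1.01 against −1.20. In EMP 1 was called without cells holding a Cpa3 UMI. Pairs of a member and a cell type with an exact p under 0.05 were 12, and 5 after thinning. Of these 5, Meis2 in EMP and Pbx2 in vEC_2 were among the 12, and Meis1 in megakaryocytes and in Myeloid cells and Pbx4 in EMP were not. The shares of cells with a UMI without thinning were 84.2% (WT) and 35.9% (Mff_Cre) for Meis1 in EMP, 1.11% for Meis2 in WT EMP and 81.4% for Meis2 in WT pre-HE, which was 39.8% at 3000 UMIs. Pbx3 in vEC_2 was 43.9 CPM in pooled counts, where vEC_3 was higher. The difference of Pbx2 in vEC_3 against vEC_1 turned to 0.0080 with thinned cells. The causes were not tested. Tags gave 0 members in all settings.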
